A study of Arabidopsis thaliana with 12 samples.

Results

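The 10 genes described here were high in one genotype and low in the other, most of them nearly silent there, in RNA sequencing of whole Arabidopsis thaliana seedlings, and they were chosen by their measured levels in the 2 genotypes out of 32833 genes counted. The rule asked for near silence in one genotype whatever the dose of phytosulfokine (PSK), so it used the genotype difference itself, and the genotype values of these genes are given as a description without a test. Of the 10 genes, 4 were high in Col-0 and low in tpst (QQS, TLP18.3, AT4G33720 and AT3G25190). The other 6 were high in every tpst group and nearly silent in Col-0 (AT4G29200, AT2G01422, AT1G64795, AT1G75945, AT2G06002 and AT3G05955). All 10 passed the filter on low counts, together with 20506 genes in all.

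The 12 libraries fell into 4 groups of 3. The groups were tpst seedlings without PSK, tpst seedlings given 100 nM PSK for 5 h, tpst seedlings given 1 µM PSK for 5 h, and Col-0 seedlings without PSK, all 7-day-old and grown in liquid Murashige and Skoog medium with sucrose. The labels list no treatment for the groups without PSK, here called untreated, whereas the methods of the study describe a water mock. Each library came from pooled seedlings, and the study describes the replicates as independent. The tpst plants carry a T-DNA insertion in TPST, the tyrosylprotein sulfotransferase, in the Col-0 background, and they represent a single insertion line. Any other difference between this line and the Col-0 stock is confounded with the loss of TPST and cannot be told apart from it here.

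TPST sulfates several families of secreted peptides, so tpst lacks the active form of other peptides besides PSK. PSK is a small secreted peptide that becomes active once TPST has sulfated its tyrosines, and it is perceived by leucine-rich repeat receptor kinases at the cell surface. QQS is an orphan gene, found in Arabidopsis thaliana without relatives in other species, whose small protein binds the transcription factor subunit NF-YC4 and affects how carbon is divided between starch and protein. QQS is also known to differ between wild accessions in DNA methylation and in expression. No methylation was measured in these libraries.

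The libraries held between 17066292 and 24948416 counts. TPST itself had 6.70, 7.61 and 8.14 CPM (counts relative to library size, scaled by TMM factors) in untreated tpst, 6.29, 7.76 and 7.52 CPM at 100 nM PSK, 8.75, 9.26 and 7.10 CPM at 1 µM PSK, and 16.9, 17.03 and 17.3 CPM in Col-0. The groups did not overlap, and the targeted gene was at log2 −1.19 ± 0.13 (SE) in untreated tpst relative to Col-0. Col-0 replicate 3 stood apart from the other Col-0 libraries, at 14.2 and 15.5 times the variance expected from counting alone when paired with each of them, whereas the other pairs of replicates were at 2.88 to 4.79 times. Of 15 root marker genes 12 were lower and 2 higher in untreated tpst, with a summed level of 2729 to 2864 CPM in untreated tpst, 2806 to 2896 CPM at 100 nM PSK, 2672 to 2859 CPM at 1 µM PSK and 4324 to 4581 CPM in Col-0. Of 13 shoot photosynthesis markers 10 were higher and 0 lower, with sums of 47260 to 48285 CPM in untreated tpst, 46340 to 47908 CPM at 100 nM PSK, 47517 to 49063 CPM at 1 µM PSK and 36270 to 39848 CPM in Col-0. Most of the root marker sum came from a single gene, BGLU23 (PYK10), at 2547 CPM in untreated tpst and 4006 CPM in Col-0. Relative to untreated tpst, 2 root markers were higher and 3 lower at 100 nM PSK (adjusted p under 0.05, edgeR). At 1 µM PSK 3 were higher and 3 lower, and 1 shoot marker was higher. Over all genes 3.2% and 6.45% passed at these doses. Every marker on both lists was detected in all 4 groups. These markers moved with genotype beside every gene described here, and their part in the results was not tested. In whole seedlings, fewer cells of a type and less RNA per cell cannot be told apart.

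The 10 genes lay on 4 of the 5 nuclear chromosomes, 3 on chromosome 1, 2 on chromosome 2, 3 on chromosome 3 and 2 on chromosome 4. TPST is on chromosome 1, and the 3 genes on that chromosome were 17946056 to 26021918 bp away from it. By annotation 7 were protein-coding, 2 were ncRNA and 1 was lncRNA, whereas among all genes tested 0.497% were ncRNA and 1.15% were lncRNA. Those 3 non-coding genes were all on the side that was high in tpst. No gene of the 10 overlapped another of the 10.

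The DNA just upstream of 4 of these genes, and the short interval between AT2G01422 and its neighbour, are shown because each lies directly before the annotated start of an on-off gene. All were read from the TAIR10 genome on the strand of the gene, 5′ to 3′, and end at the base before the annotated start of the gene: chr3:12348797-12349046 (+) for QQS, chr4:16182493-16182742 (+) for AT4G33720, chr3:9174148-9174397 (+) for AT3G25190, chr1:28515917-28516166 (-) for AT1G75945 and chr2:183765-183939 (+) for the interval. Capitals mark TATAAA, the core of the TATA box, on either strand.
QQS: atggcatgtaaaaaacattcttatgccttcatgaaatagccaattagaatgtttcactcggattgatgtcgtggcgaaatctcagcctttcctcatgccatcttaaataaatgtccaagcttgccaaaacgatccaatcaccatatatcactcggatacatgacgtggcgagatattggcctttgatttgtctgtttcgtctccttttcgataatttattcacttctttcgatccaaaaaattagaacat
AT4G33720: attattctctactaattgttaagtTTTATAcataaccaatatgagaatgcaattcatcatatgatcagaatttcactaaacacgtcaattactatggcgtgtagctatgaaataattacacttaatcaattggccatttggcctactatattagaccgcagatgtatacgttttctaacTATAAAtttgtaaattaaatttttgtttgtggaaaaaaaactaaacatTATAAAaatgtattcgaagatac
AT3G25190: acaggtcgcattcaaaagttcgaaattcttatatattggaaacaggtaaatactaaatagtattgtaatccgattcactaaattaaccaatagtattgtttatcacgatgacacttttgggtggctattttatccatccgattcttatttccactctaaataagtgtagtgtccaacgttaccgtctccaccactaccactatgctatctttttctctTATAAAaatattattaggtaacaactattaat
AT1G75945: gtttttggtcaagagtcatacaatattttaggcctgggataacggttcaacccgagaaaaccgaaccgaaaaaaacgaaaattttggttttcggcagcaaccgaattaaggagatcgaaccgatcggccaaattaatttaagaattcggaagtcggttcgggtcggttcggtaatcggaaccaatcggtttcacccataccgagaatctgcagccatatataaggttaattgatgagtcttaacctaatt
PIN4 to AT2G01422: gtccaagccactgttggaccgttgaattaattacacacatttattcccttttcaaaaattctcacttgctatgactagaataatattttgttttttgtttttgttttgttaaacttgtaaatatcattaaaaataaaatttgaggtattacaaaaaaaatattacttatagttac

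AT4G33720 and AT3G25190 had TATAAA on the sense strand 23 and 32 bp before the annotated start. Over all 32546 upstream windows of 250 bp, 11.9% had this motif on the sense strand within the last 60 bp, and 46.1% had it anywhere on either strand. QQS, TLP18.3 and AT1G75945 had no TATAAA on either strand in this window. Only these exact letters were searched, so variants of the TATA box were not looked for. The W-box letters TTGACT or TTGACA, searched on both strands, were in the windows of TLP18.3 and AT3G05955 and in 32.6% of all windows. The window of AT1G75945 had 18 CG dinucleotides and a GC content of 41.6%, and the windows of QQS, AT1G64795 and AT2G06002 had 10, 10 and 12 CG dinucleotides. The windows of AT3G25190, AT4G29200 and AT3G05955 had 7 each, and those of AT2G01422, TLP18.3 and AT4G33720 had 2, 4 and 5. The median over all windows was 5 with a median GC content of 31.6%. The windows of AT2G01422 and AT1G64795 overlapped annotated neighbouring genes, the model of AT4G29200 starts at its coding sequence, and these windows are therefore not shown. These matches describe letters in the sequence and say nothing on which factor binds there.

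QQS (AT3G30720, chr3:12349047-12349933, + strand, TAIR10) was the most strongly reduced gene of the low side. It had 5, 11 and 5 counts in untreated tpst, 5, 8 and 9 counts at 100 nM PSK, 6, 6 and 21 counts at 1 µM PSK, and 736, 865 and 842 counts in Col-0. In CPM these were 0.229, 0.450 and 0.253 in untreated tpst, 0.230, 0.370 and 0.368 at 100 nM PSK, 0.307, 0.361 and 1.11 at 1 µM PSK, and 33.1, 36.9 and 31.6 in Col-0. All 9 tpst libraries were far below all 3 Col-0 libraries, and the lowest Col-0 library was 28.4 times the highest tpst library. The log2 difference was −6.71 ± 0.24 (SE) for untreated tpst relative to Col-0, the largest fitted decrease among 20506 genes. The single highest tpst value came from 1 µM PSK replicate 3, and the other 8 tpst libraries held 5 to 11 counts.

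Several features that the RefSeq annotation types as pseudogenes lay near the QQS locus. This type was taken as given, and which of them are decayed genes or other elements was not examined. Of the 4843 pseudogenes in the RefSeq annotation of the nuclear chromosomes, 6 lay within 10 kb of QQS, and 0.356% of all genes had as many. The nearest, AT3G30722, lay 340 bp from QQS, and its entry names no gene that it derives from. None of the other 9 genes had more than 3 pseudogenes within 10 kb, a number that AT3G05955 reached and that 4.49% of genes reached or passed, and 6 of the 10 had none. No other protein of the annotation matched the 59-residue QQS protein in a blastp search, and no other transcript matched its transcript.

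TLP18.3 (AT1G54780, chr1:20439383-20441159, + strand), a thylakoid lumen protein that takes part in the repair of photosystem II, was reduced but remained readily detected in tpst. It had 12.3, 14.4 and 12.7 CPM in untreated tpst, 14.7, 14.7 and 13.3 CPM at 100 nM PSK, 10.9, 12.3 and 11.02 CPM at 1 µM PSK, and 185, 172 and 136 CPM in Col-0. The groups did not overlap between genotypes, and the log2 difference was −3.64 ± 0.10 for untreated tpst relative to Col-0. Per length, its mean was 10.8 FPKM in untreated tpst, above 65.4% of the 24318 genes detected there, against 134 FPKM in Col-0, above 97.1% of the 24412 genes detected there. The description near silence therefore holds less well for TLP18.3 than for QQS, which had 0.449 FPKM in untreated tpst, above 19.0% of detected genes, against 48.9 FPKM in Col-0.

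AT4G33720 (chr4:16182743-16183619, + strand) encodes a protein of the CAP superfamily, to which the pathogenesis-related protein PR-1 belongs. It had 2.48, 2.13 and 1.06 CPM in untreated tpst, 1.24, 1.11 and 2.90 CPM at 100 nM PSK, 1.48, 1.02 and 1.43 CPM at 1 µM PSK, and 41.6, 31.8 and 28.7 CPM in Col-0. Every tpst library was below every Col-0 library, with a log2 difference of −4.15 ± 0.31 for untreated tpst. AT3G25190 (chr3:9174398-9175866, + strand), annotated as the vacuolar iron transporter-like gene VTL5, was the weakest of the low side. It had 1.10, 0.409 and 0.506 CPM in untreated tpst, 0.322, 0.416 and 0.613 CPM at 100 nM PSK, 0.512, 1.08 and 0.424 CPM at 1 µM PSK, and 8.96, 7.38 and 4.35 CPM in Col-0. The groups did not overlap, but the lowest Col-0 library was replicate 3, the one that stood apart, and it was 3.95 times the highest tpst library. The log2 difference was −3.35 ± 0.36, and −3.60 without Col-0 replicate 3.

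**Figure D1:**
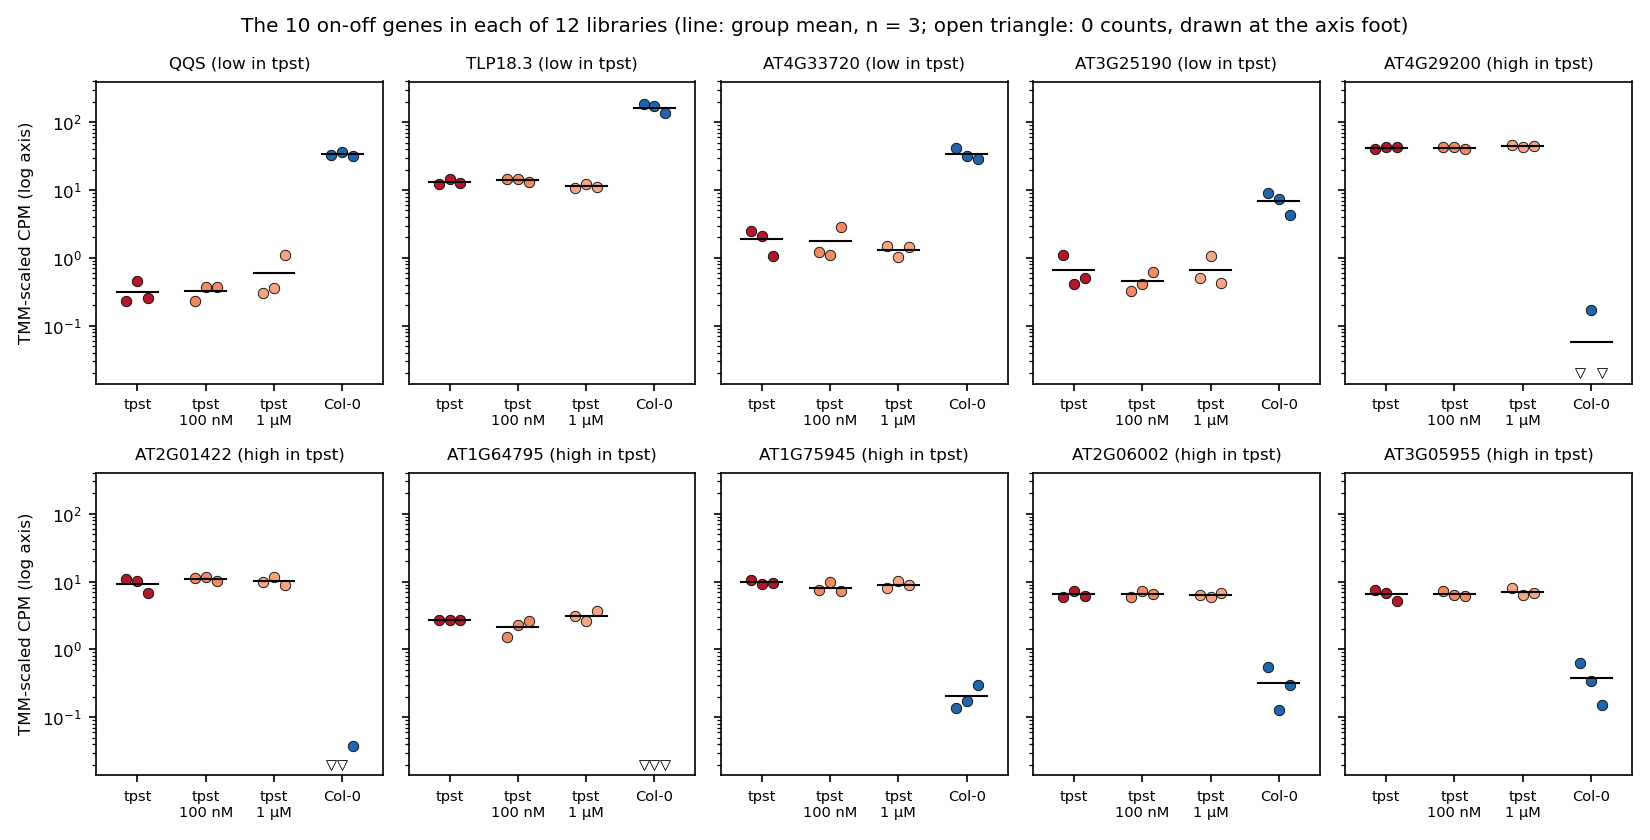
Level of each of the 10 genes in each library, in TMM-scaled CPM on a log axis, for untreated tpst, tpst with 100 nM PSK, tpst with 1 µM PSK and Col-0 (3 libraries each; lines are group means). Open triangles at the axis foot are libraries with 0 counts. In every panel the 9 tpst libraries lie on one side of the 3 Col-0 libraries.

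AT4G29200 (chr4:14398054-14400198, - strand), annotated as related to beta-galactosidase, was nearly absent from Col-0. It had 887, 1042 and 845 counts in untreated tpst, 926, 933 and 1002 counts at 100 nM PSK, 894, 709 and 830 counts at 1 µM PSK, and 0, 4 and 0 counts in Col-0. In CPM it was at 40.7, 42.6 and 42.7 in untreated tpst, 42.5, 43.1 and 41.0 at 100 nM PSK, and 45.7, 42.7 and 44.0 at 1 µM PSK, with 0.171 in the single Col-0 library that had counts. The tpst libraries were nearly alike, with a coefficient of variation of 3.52% over all 9. The pooled level was 760-fold higher in untreated tpst than in Col-0, with an exact 95% counting interval of 296 to 2791. All 4 Col-0 counts were in replicate 2, and the fitted log2 difference of 9.43 became 12.8 without that library, where Col-0 had 0 counts left. Its mean of 30.4 FPKM in untreated tpst was above 85.6% of the genes detected there.

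AT2G01422 (chr2:183940-184734, + strand), an ncRNA, had 237, 251 and 134 counts in untreated tpst, 246, 253 and 248 counts at 100 nM PSK, 191, 194 and 168 counts at 1 µM PSK, and 0, 0 and 1 counts in Col-0. Untreated tpst replicate 3 was the lowest tpst library at 6.78 CPM, and the other 8 lay between 8.90 and 11.7 CPM. The pooled level was 682-fold higher in untreated tpst than in Col-0, with an exact 95% counting interval of 122 to 26963, and the Col-0 level rests on 1 count in replicate 3. The fitted log2 difference of 8.90 became 10.6 without that library. AT1G64795 (chr1:24082579-24082848, + strand), a short gene with a predicted protein of 66 residues, had 59, 67 and 54 counts in untreated tpst, 33, 50 and 65 counts at 100 nM PSK and 60, 43 and 69 counts at 1 µM PSK. It had 0 counts in all 3 Col-0 libraries. Against the floor of 3 counts over the Col-0 group, it was at least 65.7-fold higher in untreated tpst, at least 52.6-fold higher at 100 nM PSK and at least 75.4-fold higher at 1 µM PSK. These intervals and floors cover counting error only.

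The last 3 genes of the high side were low but not absent in Col-0. AT1G75945 (chr1:28515245-28515916, - strand), which encodes a predicted protein of 61 residues, had 10.6, 9.37 and 9.41 CPM in untreated tpst, 7.44, 9.75 and 7.32 CPM at 100 nM PSK, 7.98, 10.05 and 8.95 CPM at 1 µM PSK, and 0.135, 0.171 and 0.300 CPM in Col-0. The lowest tpst library was 24.4 times the highest Col-0 library, and the log2 difference for untreated tpst was 5.52 ± 0.26. AT2G06002 (chr2:2330776-2331479, + strand), an ncRNA, had 6.01, 7.32 and 6.12 CPM in untreated tpst, 5.88, 7.35 and 6.58 CPM at 100 nM PSK, 6.45, 6.02 and 6.84 CPM at 1 µM PSK, and 0.540, 0.128 and 0.300 CPM in Col-0. Its lowest tpst library was 10.9 times its highest Col-0 library, and its log2 difference was 4.33 ± 0.27. AT3G05955 (chr3:11586005-11586548, - strand), a lncRNA, had 7.52, 6.71 and 5.16 CPM in untreated tpst, 7.30, 6.29 and 6.13 CPM at 100 nM PSK, 8.14, 6.38 and 6.89 CPM at 1 µM PSK, and 0.630, 0.341 and 0.150 CPM in Col-0. Its lowest tpst library was 8.18 times its highest Col-0 library, the narrowest gap on the high side, and its log2 difference was 4.14 ± 0.29.

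The order of the levels differed between the genotypes. Among the 10 genes, mean FPKM in untreated tpst was highest for AT4G29200 (30.4) and AT1G75945 (21.1), followed by AT1G64795 (13.5), AT3G05955 (11.8), AT2G01422 (11.6), TLP18.3 (10.8) and AT2G06002 (9.14), and lowest for AT4G33720 (2.14), AT3G25190 (0.655) and QQS (0.449). In Col-0 the order was TLP18.3 (134), QQS (48.9), AT4G33720 (38.5) and AT3G25190 (6.71), and each of the other 6 was at or below 0.681. In the genotype where they were on, the mean levels ranged from 9.14 to 30.4 FPKM in untreated tpst on the high side and from 6.71 to 134 FPKM in Col-0 on the low side. The coefficient of variation over the 9 tpst libraries was largest for QQS (67.1%), AT3G25190 (48.7%) and AT4G33720 (41.5%), all low in tpst, and smallest for AT4G29200 (3.52%) and AT2G06002 (8.63%).

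As background for these differences, 5731 genes (27.9%) were called in untreated tpst against Col-0 at an adjusted p under 0.05 (edgeR quasi-likelihood test with Benjamini-Hochberg adjustment), 2732 higher (13.3%) and 2999 lower (14.6%), and in 39.8% of genes the libraries of these groups did not overlap. The calls were 29.7% at 100 nM PSK (14.1% higher, 15.6% lower) and 34.8% at 1 µM PSK (16.9% higher, 17.9% lower) against Col-0, and 39.7% and 44.5% of genes did not overlap in these comparisons. These comparisons share the Col-0 libraries. All 10 genes were among the calls in each, which the rule fixes. A change of at least 8-fold in each of the 3 comparisons was found for 13 lower and 8 higher genes, among them all 10 genes described here. At 16-fold, 2 lower genes remained, QQS and AT4G33720, and 6 higher genes, which were the 6 of the high side. The other 9 lower genes at 8-fold had 0.660 to 7.37 CPM in Col-0, and included PLL3, AtMYB19 and AT1G19900. Among them AT5G38910 (log2 −5.63), AT4G37950 (−5.26) and AT5G39000 (−4.25) fell further in untreated tpst than AT4G33720, TLP18.3 and AT3G25190 did. These had 1.04, 0.792 and 0.963 CPM in Col-0. The other higher genes were DREB1C and AT4G10265. AT4G10265 had 1.27 CPM in untreated tpst, 6.23 CPM at 100 nM PSK and 17.1 CPM at 1 µM PSK, against 0.108 CPM in Col-0, so that its level was not constant over the tpst groups. These genes were named after their values were seen.

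The PSK comparisons asked whether PSK, one of the sulfated peptides missing in tpst, changed these genes within 5 h. For the 4 genes of the low side the rule asked for near silence at each dose, so their values are given without a test. For the 6 genes of the high side it asked for high levels in every tpst group, so their values at each dose also entered the choice. The tests on these 6 therefore describe chosen genes and cannot show whether PSK leaves such genes unchanged. None of the 6 was called at either dose or between the doses. Over all genes, 3.2% were called at 100 nM PSK (1.29% higher, 1.91% lower), 6.45% at 1 µM PSK (3% higher, 3.45% lower) and 0.239% between the doses (0.127% higher at 1 µM PSK, 0.112% lower). The libraries of the groups did not overlap in 19.8% of genes at 100 nM PSK and 26.6% at 1 µM PSK. Of the 6 genes, 0 reached an unadjusted p under 0.05 in any of the 3 comparisons, with edgeR, with DESeq2 or with edgeR without Col-0 replicate 3. The comparisons with untreated tpst share those 3 libraries.

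On the high side, AT4G29200 was at log2 0.01 (95% interval −0.19 to 0.21, adjusted p = 0.990) at 100 nM PSK and 0.07 (−0.13 to 0.27, adjusted p = 0.730) at 1 µM PSK relative to untreated tpst. AT2G01422 was at 0.24 (−0.13 to 0.61, adjusted p = 0.606) and 0.11 (−0.26 to 0.49, adjusted p = 0.784) at 100 nM and 1 µM PSK. AT1G64795 was at −0.33 (−0.95 to 0.29, adjusted p = 0.711) and 0.19 (−0.42 to 0.80, adjusted p = 0.772), the widest intervals of the high side. The lowest p of the high side at 100 nM PSK was that of AT1G75945, at −0.26 (−0.61 to 0.09, adjusted p = 0.524), and at 1 µM PSK it was at −0.12 (−0.48 to 0.23, adjusted p = 0.730). AT2G06002 and AT3G05955 were both at 0.02 at 100 nM PSK, with intervals from −0.40 to 0.44 and from −0.43 to 0.47. At 1 µM PSK they were at −0.01 (−0.44 to 0.41) and 0.14 (−0.31 to 0.59). A change of 2-fold, that is 1 on the log2 scale, lay outside every one of these intervals at both doses. The choice of these genes used the same values, so the intervals are a description and cannot decide whether PSK acts on such genes. Between the doses, AT1G64795 had the largest difference of the high side, 0.52 (−0.10 to 1.14, adjusted p = 0.530) for 1 µM relative to 100 nM PSK, an interval that includes 2-fold.

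On the low side, QQS was at log2 0.03 (95% interval −1.10 to 1.16) at 100 nM PSK and 0.90 (−0.13 to 1.93) at 1 µM PSK relative to untreated tpst. The value at 1 µM rests on replicate 3 with 21 counts, and the other 1 µM libraries had 6 counts each. Even this library, at 1.11 CPM, was far below the lowest Col-0 library at 31.6 CPM. TLP18.3 was at 0.11 (−0.15 to 0.36) and −0.21 (−0.48 to 0.06) at 100 nM and 1 µM PSK. Between the doses it was at −0.32 (−0.58 to −0.05) for 1 µM relative to 100 nM PSK, and the libraries of the 2 doses did not overlap, as was the case for 18.2% of all genes. That interval is not adjusted for the number of genes compared, and no change of TLP18.3 between the doses is read from it. AT4G33720 was at −0.10 and −0.53 and AT3G25190 at −0.55 and −0.02 at 100 nM and 1 µM PSK. The intervals of these 2 genes reached beyond 2-fold in at least one direction at each dose, and they rest on 7 to 71 counts per library.

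**Figure D2:**
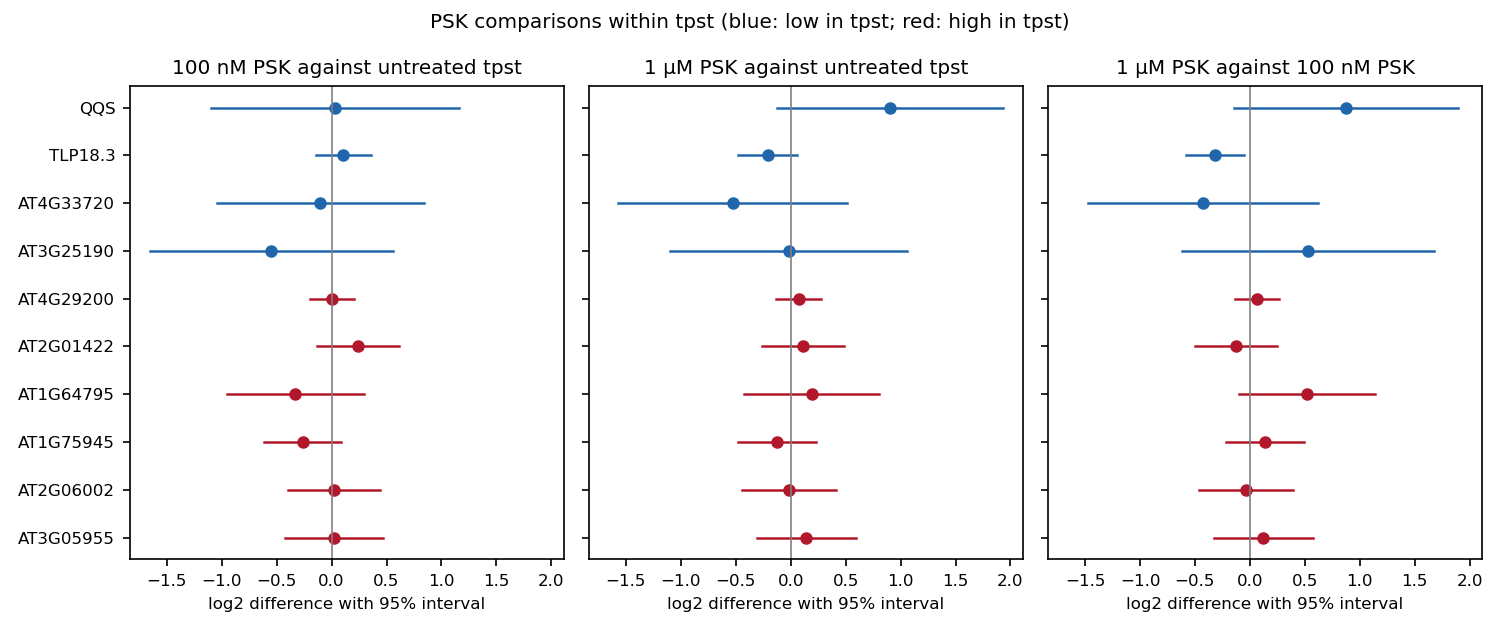
Log2 differences of the 10 genes in the 3 PSK comparisons within tpst, with 95% intervals from the fit over all genes (3 libraries per group). Blue are the genes low in tpst, red the genes high in tpst. The 6 red intervals include 0 in every panel, and the blue ones are wider except that of TLP18.3.

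Genes around the 10 loci were then examined. Of the 60 genes that lay nearest, 3 on each side of each locus, 22 had no counts in any library and 31 were tested. In untreated tpst 3 of these were higher and 5 lower than in Col-0, 8 of 31 or 25.8%, against 27.9% of all genes. Their log2 differences ran from −1.59 to 1.44, and their median size was 0.20, against 0.19 over all genes. None approached the differences of the on-off genes, whose sizes were 3.35 to 9.43.

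The directly adjacent genes that were tested differed far less than the on-off gene beside them. Many adjacent genes did not reach the filter on low counts. AT3G25190 had no tested gene directly beside it, and TLP18.3 only the overlapping AT1G54790. The examples that follow lie beside genes of the high side. PIN4, an auxin efflux carrier, is divergent from AT2G01422 across the 175 bp interval printed above, and had 37.3, 37.5 and 39.0 CPM in untreated tpst, against 36.6, 38.4 and 34.8 CPM in Col-0. These groups overlapped (log2 0.05, adjusted p = 0.623, edgeR quasi-likelihood test), while AT2G01422 on the other side of the interval had 622 counts in untreated tpst and 1 count in Col-0. SKP1A, a subunit of SCF ubiquitin ligases 602 bp from AT1G75945, had 200.4 ± 9.8 CPM in untreated tpst and 197 ± 17 CPM in Col-0 (SD, n = 3 each). GGT3, a gamma-glutamyl transferase gene 721 bp from AT4G29200, had 22.7 ± 2.1 CPM in untreated tpst and 23.0 ± 1.2 CPM in Col-0 (SD, n = 3 each). FIP1 and AT2G06000, 837 and 902 bp from AT2G06002 on either side, were at log2 −0.23 and 0.09 in untreated tpst (adjusted p = 0.413 and 0.572, edgeR).

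Of the neighbours, 4 were called with a change of at least 2-fold in untreated tpst against Col-0. GDU6, a GLUTAMINE DUMPER family member 2538 bp downstream of QQS, went the other way from QQS, with 0.826, 0.736 and 0.961 CPM in untreated tpst against 0.225, 0.469 and 0.225 CPM in Col-0 (log2 1.44, adjusted p = 0.0178, edgeR). AT4G33730, another CAP superfamily gene 1424 bp downstream of AT4G33720, went the same way as its neighbour but less far, with 0.183, 0.368 and 0.556 CPM in untreated tpst against 1.31, 1.07 and 0.975 CPM in Col-0 (log2 −1.59, adjusted p = 0.00794, edgeR). Unlike AT4G33720, it had 0.689, 1.06 and 0.981 CPM at 100 nM PSK and 1.18, 0.662 and 0.954 CPM at 1 µM PSK, although neither difference from untreated tpst passed the test (adjusted p = 0.150 and 0.0895, edgeR). RHS16, 8278 bp from AT4G29200 with AT4G29190 in between, was at log2 −1.03 (adjusted p = 0.00763, edgeR). The homeobox gene ATHB-17, 2873 bp from AT2G01422, was at −1.12 (adjusted p = 0.00740, edgeR). Both went opposite to the on-off gene of their locus. The call for GDU6 was lost without tpst replicate 3 (adjusted p = 0.0642), Col-0 replicate 1 (0.0754) or Col-0 replicate 3 (0.0821), that for AT4G33730 without tpst replicate 1 (0.0581), and that for ATHB-17 without tpst replicate 1 (0.0567) or Col-0 replicate 1 (0.0578).

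**Figure D3:**
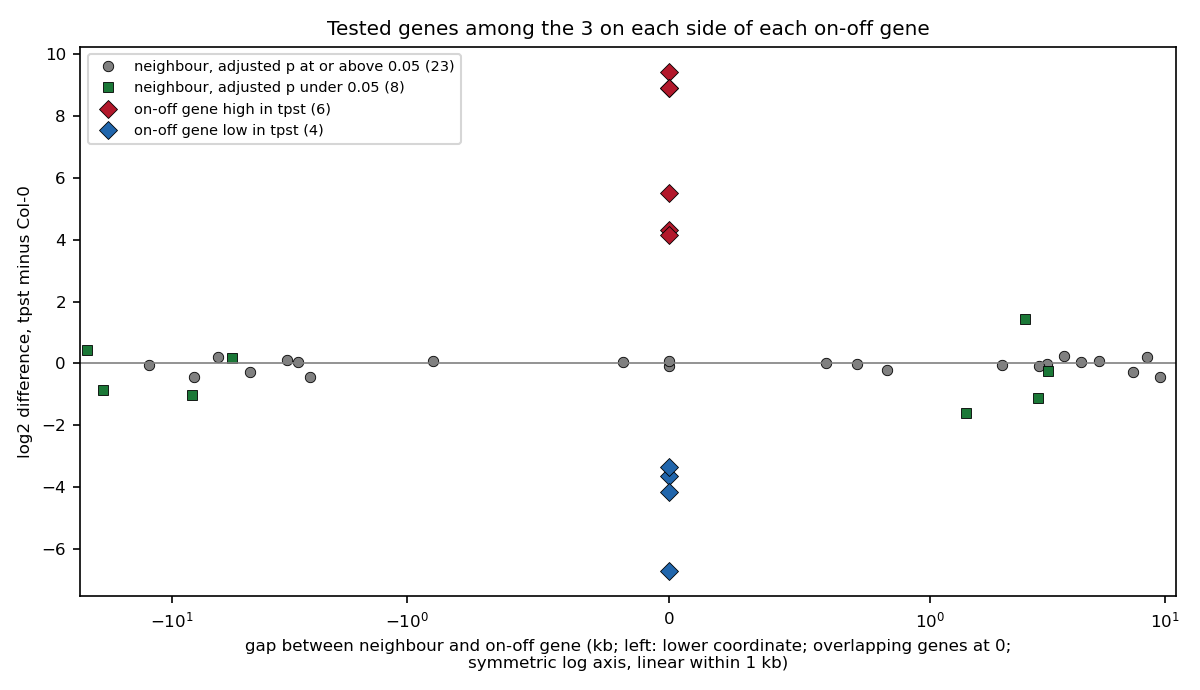
Log2 difference of untreated tpst minus Col-0 for the 31 tested neighbours, by their gap to the on-off gene in kb on a symmetric log axis, with the 10 on-off genes at 0. Neighbours stay between −1.59 and 1.44, including the pair of genes that overlap an on-off gene and are drawn at 0.

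Reads from overlapping genes could be shared, because the library kit named in the labels (NEBNext Ultra RNA) does not mark strand. AT1G64795 lies within ILA, a gene on the opposite strand, and 142 of its 201 exonic bases are also exonic in ILA. ILA had 299 ± 12 CPM in untreated tpst and 283.0 ± 7.1 CPM in Col-0 (SD, n = 3 each, log2 0.08, adjusted p = 0.274, edgeR). The counts of AT1G64795 are uncertain where these genes overlap, and the part of ILA reads in them was not tested. TLP18.3 shared 181 exonic bases with AT1G54790 and 46 with the lncRNA AT1G07993 on the opposite strand. AT1G54790 had 1.16 ± 0.26 CPM in untreated tpst and 1.22 ± 0.24 CPM in Col-0 (SD, n = 3 each), and AT1G07993 held 0 counts in untreated tpst and 6 in Col-0.

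Near copies of the 10 genes were looked for next. AT2G01422 matched AT3G28899 over 316 bp at 91.5% identity and the ribosomal protein gene RPL34C over 461 bp at 89.8% identity. AT3G28899 had no counts in any library, and RPL34C had 124 to 138 CPM in untreated tpst and 116 to 134 CPM in Col-0. The counts of AT2G01422 are uncertain to the extent that reads of such a copy could be placed on it, which was not tested. No other gene of the 10 had another transcript at 90% identity over 100 bp or more, apart from the overlapping exons of TLP18.3. By protein, PRB1, a basic PR-1 relative, was closest to AT4G33720 at 60.7% identity over 163 residues. PRB1 had 0.734, 0.286 and 0.152 CPM in untreated tpst against 0.945, 1.28 and 0.825 CPM in Col-0 (log2 −1.36, adjusted p = 0.0418, edgeR). This call was lost under 9 alternatives, with adjusted p between 0.0509 and 0.190. AT3G43660 was closest to AT3G25190 at 58.9% identity and AT5G49250 closest to AT4G29200 at 49.8%, and neither reached the filter on low counts. QQS, TLP18.3, AT1G64795 and AT1G75945 had no match among the other proteins.

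Genes outside the 10 whose profile over the 12 libraries was nearest to theirs were found by root mean square distance of centred log2 CPM. For the low side these were AT3G51350, an aspartyl protease family gene (distance 0.59), TPPH, a trehalose-phosphate phosphatase (0.62), the receptor kinase gene AT1G07560 (0.64), the glutaredoxin gene GRXS8 (0.64) and AT4G04990 (0.65). AT3G51350 averaged 3.49 CPM in untreated tpst, 2.30 CPM at 100 nM PSK, 2.42 CPM at 1 µM PSK and 22.1 CPM in Col-0. The members of the low side were themselves at 0.29 (AT4G33720) to 1.04 (QQS) from their median profile. For the high side they were the aldo-keto reductase gene AKR4C9 (1.07), AT1G70260 (1.09), the sugar transporter gene SWEET15 (1.17), AT2G37870 (1.195) and ASN1, an asparagine synthetase gene (1.203). AKR4C9 averaged 11.1 CPM in untreated tpst, 11.8 CPM at 100 nM PSK, 10.9 CPM at 1 µM PSK and 1.69 CPM in Col-0, so it was lower but expressed in Col-0. The 6 genes of the high side were themselves at 0.19 (AT1G75945) to 1.47 (AT4G29200) from their median profile, so that AT4G29200 was farther from it than the 5 other genes named.

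The pathways in which the named on-off genes act were followed through gene lists. In a list of starch metabolism genes that also held NFYC4, the partner of QQS, most genes were higher in tpst. Of 34 genes 28 were higher and 1 lower in untreated tpst against Col-0, where 13.3% of all genes were higher and 14.6% lower. The median log2 difference of the list was 0.40, against 0.003 over all genes. The shoot photosynthesis markers moved the same way as this list (median 0.29), and their part in it was not tested. GBSS1, the granule-bound starch synthase that makes amylose, averaged 86.5 ± 5.3 CPM in untreated tpst and 28.9 ± 5.3 CPM in Col-0 (SD, n = 3 each), a log2 difference of 1.58 (adjusted p = 2.7e-05, edgeR). APL3, a large subunit of ADP-glucose pyrophosphorylase, was at 1.203 and the debranching enzyme gene ISA3 at 1.07 (adjusted p = 3.5e-10 and 2.3e-11, edgeR). The lower gene was NFYC4, with 7.76 ± 0.25 CPM in untreated tpst and 10.8 ± 1.6 CPM in Col-0 (log2 −0.47, adjusted p = 0.0162, edgeR). At 100 nM PSK 1 of the 34 genes was higher than in untreated tpst, APL3 at 0.28 (adjusted p = 0.0491, edgeR), and at 1 µM PSK 1 was higher, NFYC4 at 0.52 (adjusted p = 0.0303, edgeR), with 0 lower at either dose. The list medians in these PSK comparisons were 0.08 and 0.03. The PSK call for APL3 was lost in 6 of 12 leave-one-out fits (adjusted p 0.0660 to 0.236, without tpst replicate 2 or 3, 100 nM PSK replicate 1 or 3, 1 µM PSK replicate 2, or Col-0 replicate 1), and that for NFYC4 in 5 (0.0651 to 0.203, without any 1 tpst replicate, or 1 µM PSK replicate 2 or 3).

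Photosystem II repair genes other than TLP18.3 moved little and upward, whereas TLP18.3 was reduced. Of 29 genes 23 were higher and 0 lower in untreated tpst, against 13.3% higher and 14.6% lower over all genes. The list had a median of 0.24 and a range of −0.22 to 0.47. CURT1A, which curves the thylakoid margins, was at 0.47 (adjusted p = 1.3e-06), AT4G35760 at 0.43 (adjusted p = 5.3e-06) and LQY1, a thylakoid zinc-finger protein, at 0.41 (adjusted p = 0.00650, all edgeR). The log2 difference of TLP18.3, −3.64, lay outside that range. The shoot photosynthesis markers moved the same way as this list (median 0.29), and their part in it was not tested. At 100 nM PSK none was called, and at 1 µM PSK PSB27-1 at 0.26 (adjusted p = 0.0152) and LPA1 at 0.21 (adjusted p = 0.0315, edgeR) were higher, with a list median of 0.05 at both doses. The call for PSB27-1 was lost in 3 leave-one-out fits (adjusted p 0.0579 to 0.116, without tpst replicate 1 or 2 or 1 µM PSK replicate 3) and that for LPA1 in 6 (0.0593 to 0.187, without any 1 replicate of untreated tpst or of 1 µM PSK).

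In the CAP family of AT4G33720 more of the called genes were lower than higher in untreated tpst, which did not hold at 100 nM PSK. Of its 21 other members 14 were tested, 7 were lower and 2 higher in untreated tpst, with a median of −0.75. Over all genes 14.6% were lower and 13.3% higher in this comparison. Against Col-0, 4 were lower and 4 higher at 100 nM PSK, and 6 lower and 4 higher at 1 µM PSK. AT4G07820 was at −1.78 (adjusted p = 2.8e-05), AT4G33730, the neighbour named above, at −1.59, and AT4G31470 at −1.56 (adjusted p = 3.9e-05, edgeR). The root markers were lower in the same libraries (median −1.02), and their part in this was not tested. AT2G19970 was higher at 100 nM PSK, at 0.50 (adjusted p = 0.0126), and at 1 µM PSK, at 0.46 (adjusted p = 0.0162, edgeR). Its call at 100 nM PSK was lost without 100 nM PSK replicate 1 (adjusted p = 0.0733), and that at 1 µM PSK without tpst replicate 3 (0.0531) or 1 µM PSK replicate 1 (0.0783). AT4G07820 fell further at 1 µM PSK, by 1.33 on the log2 scale (adjusted p = 0.0286, edgeR), a call lost without any 1 replicate of untreated tpst or of 1 µM PSK (0.0545 to 0.140). Of the 5 other vacuolar iron transporter genes, the family of AT3G25190, only AT1G76800 was tested, and its difference of −0.22 did not pass the test (adjusted p = 0.688, edgeR).

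**Figure D4:**
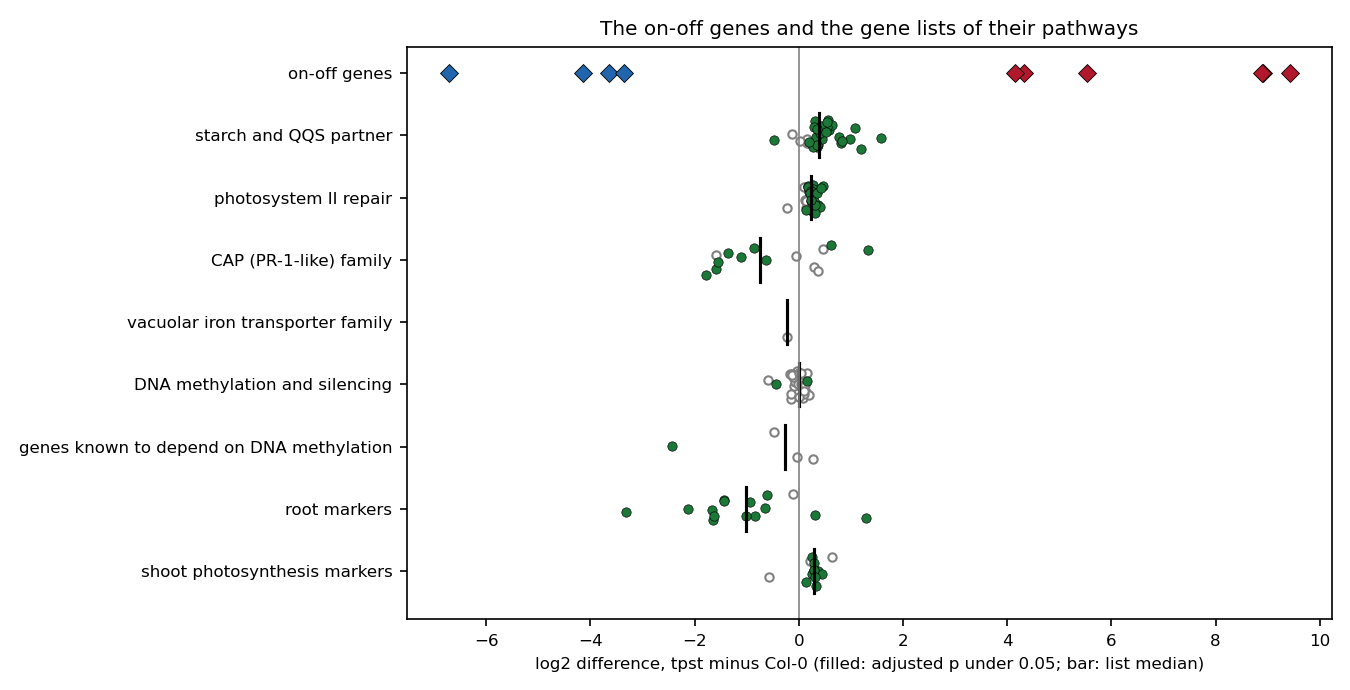
Log2 difference of untreated tpst minus Col-0 for the 10 on-off genes (top, diamonds) and the tested genes of each list (circles, filled where the adjusted p was under 0.05). Bars are list medians. The 10 on-off genes lie outside the range of every list, and the lowest root marker, at −3.31, comes nearest to them.

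Genes of DNA methylation and silencing showed small differences. Of 29 genes 1 was higher and 1 lower in untreated tpst, against 13.3% higher and 14.6% lower over all genes, with a list median of 0.01. DMT1, the maintenance methyltransferase MET1, averaged 111.7 ± 1.1 CPM in untreated tpst and 100.2 ± 4.1 CPM in Col-0 (log2 0.16, adjusted p = 0.0250, edgeR). ROS1, a DNA demethylase, averaged 9.86 ± 0.23 CPM in untreated tpst and 13.3 ± 0.93 CPM in Col-0 (log2 −0.43, adjusted p = 0.00297, edgeR). ROS1 was at 0.39 at 100 nM PSK relative to untreated tpst (adjusted p = 0.0412) and DMT1 fell by 0.25 on the log2 scale at 1 µM PSK (adjusted p = 0.00255, edgeR). The genotype call for DMT1 was lost without tpst replicate 2 or 3, without Col-0 replicate 1 or 2 and with only the libraries compared (adjusted p 0.0679 to 0.103), and the PSK call for ROS1 without any 1 replicate of untreated tpst or of 100 nM PSK and without the filter (0.0598 to 0.158). Among 10 genes known to depend on DNA methylation, 4 were tested and 1 was called in untreated tpst against Col-0. This was AT4G11170 at −2.43 (adjusted p = 0.00167, edgeR), with 0.255 CPM in untreated tpst and 1.40 CPM in Col-0. At each PSK dose 2 were lower than in Col-0, AT4G11170 and EPF2. EPF2 was at −0.77 at 100 nM PSK (adjusted p = 0.00895) and −0.79 at 1 µM PSK (adjusted p = 0.00843, edgeR). The 6 others of this list did not reach the filter on low counts.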

How the data were processed

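RNA of pooled whole seedlings was sequenced after poly(A) enrichment as paired 150-bp reads. Per the labels and the study's methods, the authors trimmed reads with fastp, aligned them to TAIR10 with HISAT2 2.0.5 and deposited counts per gene from featureCounts 1.5.0-p3. The deposited FPKM values are fragments per kilobase of exon relative to library size, and they differ from the counts by a library factor of 0.976 to 1.083. FPKM served only to compare levels between genes. One label describes separated shoot and root tissue, the others whole seedlings.

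Counts were tested as deposited with edgeR 4.0.16 (R 4.3.3; filterByExpr, TMM factors 0.974 to 1.075, 1 term per group, quasi-likelihood test, two-sided, Benjamini-Hochberg over 20506 genes, which held 99.96% of counts). DESeq2 1.42.0 was an alternative. Sequences, coordinates and pseudogenes came from RefSeq TAIR10.1, where 32531 of 32548 nuclear genes, with all 10 members, had the coordinates of the table. Near copies were searched with BLAST 2.17.0 at an E-value of at most 1e-05.

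The 10 genes, the lists and the tests were chosen with earlier results of these data known. Besides the 10 genes and TPST, the text names the 5 genes nearest in profile on each side, neighbours called at 2-fold, the closest paralogs, and up to 3 called genes per list with the largest change. Replicate numbers did not pair the samples, and p-values measure the spread between these libraries.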

Additional observations from a re-analysis of the deposited data

How the results depend on the processing

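The genotype differences of the 10 genes kept their direction in all 510 values computed under RLE size factors, DESeq2, no filter, only the libraries compared, the replicate block and each left-out library, with sizes of 3.08 to 12.9 on the log2 scale. The counts of called genes against Col-0 stayed within 1.5 times under each of these, at 4577 to 5802, 5119 to 6187 and 5964 to 7112 over the left-out libraries for untreated tpst, 100 nM PSK and 1 µM PSK. The counts within tpst moved more. Leaving out 1 library gave 407 to 1033 calls at 100 nM PSK (656 with all), lowest without 100 nM PSK replicate 3 and also low at 428 without tpst replicate 1, and highest without Col-0 replicate 3. At 1 µM PSK it gave 778 (without tpst replicate 2) to 2174 (without Col-0 replicate 3), with 1323 from all libraries, and the fit of only the libraries compared gave 2115. Between the doses it gave 17 to 535 (49 with all): 17 and 30 without 100 nM PSK replicates 1 and 2, 19 and 20 without 1 µM PSK replicates 2 and 3, and 88 and 535 without Col-0 replicates 2 and 3. DESeq2 gave 148 there, no filter 97 and only the libraries compared 467. Called neighbours numbered 4 (without tpst replicate 1) to 9, and called list genes 79 to 91 (88 with all). None of the 6 genes of the high side, which were chosen for high levels in every tpst group, was called in a PSK comparison under any of these alternatives. The causes were not tested.

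With the replicate number as a block the comparison between the doses gave 95 calls, and no other count moved beyond 1.5 times. The numbers did not pair the samples: the correlations of same-numbered deviations lay between -0.081 and 0.060.

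Depth limits the near-silent state. QQS, AT3G25190 and AT4G33720 rest on 5 to 71 counts per tpst library and the 6 genes of the high side on 0 to 14 counts per Col-0 library, and small differences within the off state were not detectable at this depth. Without Col-0 replicate 3, the log2 difference in untreated tpst was 10.6 for AT2G01422 (8.90 with it), 8.81 for AT4G29200 (9.43, and 12.8 without Col-0 replicate 2, which held all its Col-0 counts), 5.94 for AT1G75945 (5.52), 4.28 for AT2G06002 (4.33), 3.73 for AT3G05955 (4.14) and 8.86 for AT1G64795 (8.89), and -6.76 for QQS (-6.71), -3.76 for TLP18.3 (-3.64) and -4.26 for AT4G33720 (-4.15). For AT2G01422, AT4G29200 and AT1G64795 these fitted values depend on the prior count and are no bounds.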
